A study of Drosophila melanogaster with 2 samples.

Results

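Distal intergenic Onecut summits are the Onecut peaks of the Drosophila melanogaster embryo whose point of highest signal lay outside every protein-coding gene body and more than 2000 bp from the nearest start site of protein-coding transcription (TSS). They were chosen by position alone and numbered 782 of the 6747 summits on the chromosome arms (11.6%, 95% Wilson interval 10.8 to 12.4). The source was chromatin of whole embryos aged 0 to 24 hours from transgenic flies that carried a fusion of Onecut with enhanced green fluorescent protein. The description of the samples names an antibody against GFP, while their antibody label reads onecut, so whether the tagged protein alone was precipitated cannot be told from the labels. The 2 libraries are labelled biological replicates 1 and 2 and form 1 group with 1 genotype, so no conditions were compared. The labels do not say which promoter or copy of the gene drives the fusion, and whole embryos mix all tissues and stages of that span. The read depth behind the peaks is not given in the sources used here.

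Onecut belongs to a family of transcription factors that bind DNA through a cut domain and a homeodomain, and in flies it is known mainly from the nervous system. Proteins of this family recognise a short core, spelled here as ATCGAT or ATTGAT on either strand. In compact genomes such as that of the fly, many enhancers lie in introns or near promoters, but genes of the body plan and of neural fate often have enhancers in long gaps between genes. Such gaps also hold genes for long non-coding RNAs (lncRNAs), transcripts that encode no protein.

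Sequences at 10 of these summits show what they share and how they differ: 6 of them hold the core near the summit, and 4 of the strongest or most clustered do not. Each window reaches 50 bp to either side of the summit, in dm6 (Release 6) coordinates, with the core in capitals (ATCAAT is ATTGAT read on the other strand). Windows are named by a gene beside them, without a claim that the gene is a target.
Ama and Dfd (chr3R:6766309-6766409, plus strand): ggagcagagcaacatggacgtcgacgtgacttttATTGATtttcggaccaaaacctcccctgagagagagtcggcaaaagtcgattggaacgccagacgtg
abd-A (chr3R:16798574-16798674, plus strand): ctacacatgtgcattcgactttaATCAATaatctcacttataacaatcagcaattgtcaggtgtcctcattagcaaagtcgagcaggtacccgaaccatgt
hb (chr3R:8705409-8705509, plus strand): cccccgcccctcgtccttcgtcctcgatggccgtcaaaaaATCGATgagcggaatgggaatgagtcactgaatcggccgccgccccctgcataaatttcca
Hr38 (chr2L:20720042-20720142, plus strand): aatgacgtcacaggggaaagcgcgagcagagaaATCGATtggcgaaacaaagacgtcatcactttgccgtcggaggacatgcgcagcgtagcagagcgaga
SIFaR and aus (chr3R:21296048-21296148, plus strand): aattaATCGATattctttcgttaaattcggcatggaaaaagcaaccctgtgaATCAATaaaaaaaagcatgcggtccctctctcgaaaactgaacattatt
vvl (chr3L:6816895-6816995, plus strand): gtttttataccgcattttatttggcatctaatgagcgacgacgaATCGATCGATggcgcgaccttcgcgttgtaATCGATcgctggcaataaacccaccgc
eEF1gamma (chr3R:29214395-29214495, plus strand): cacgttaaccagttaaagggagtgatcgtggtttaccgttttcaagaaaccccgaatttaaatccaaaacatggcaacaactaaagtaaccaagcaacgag
tara (chr3R:16222438-16222538, plus strand): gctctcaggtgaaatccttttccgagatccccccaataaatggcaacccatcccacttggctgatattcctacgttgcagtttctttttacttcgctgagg
hll (chr2L:14024016-14024116, plus strand): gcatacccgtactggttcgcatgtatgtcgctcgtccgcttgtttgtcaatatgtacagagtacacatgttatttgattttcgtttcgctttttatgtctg
chinmo (chr2L:1632800-1632900, plus strand): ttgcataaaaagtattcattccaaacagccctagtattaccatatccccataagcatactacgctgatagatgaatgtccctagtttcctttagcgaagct
The core began 16 bp left of the summit between Ama and Dfd, 27 bp left beside abd-A and 10 bp left beside hb. The vvl window held 3 copies, of which 2 overlap by 2 bases, and the window between SIFaR and aus held 1 copy of each form.

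The strongest distal summits lay beside genes of very different kinds. The highest of all 782 had a signal of 1804 and lay between Ama and the Hox gene Dfd, which patterns the head. The nearest TSS, 2955 bp away, was that of Ama, and the body of Dfd was 25477 bp away. The signal is the height the authors gave each peak, on a scale that is not stated, and it is compared here only within a list. Its peak had a signal of 626.4 in replicate 1's own list and 1168 in replicate 2's. Among the other Hox genes, abd-A, which specifies abdominal segments, had a summit of 1243 in the gap that it shares with Glut3 (462.5 in replicate 1 and 757.6 in replicate 2). The gap gene hb had a summit of 875.5 on the side of Cks85A (327.0 and 549.7). Hr38, a nuclear receptor gene, had a summit of 843.5 (297.3 and 553.8), and the summit of 816.5 (374.5 and 437.9) lay between Dip-B and tal-1A, a gene that encodes short peptides.

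The other members among the 20 highest had flanking genes of various roles (ranks are by signal among the 782). The summit of rank 2, between RYBP, which encodes a partner of Polycomb group proteins, and Ppa, had a signal of 1536 (617.1 in replicate 1 and 899.9 in replicate 2). The summit of rank 4, between Su(z)2 and CG13323, had 1305 (665.9 and 631.8), and the summit of rank 12, between Psc, a Polycomb group gene, and CG33798, had 908.8 (408.6 and 506.0). Su(z)2 and Psc are neighbours on chromosome arm 2R, so these 2 summits lie at 1 locus.

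The summit of rank 3 (1408; 733.3 in replicate 1 and 692.1 in replicate 2) lay between Cyt-c1L and eEF1gamma, a translation elongation factor gene, and 117 bp from the start of lncRNA:CR31044. The summit of rank 5 (1269; 594.9 and 649.1) lay between mtSSB, which encodes a mitochondrial DNA-binding protein, and tara. Rank 11 (934.2) lay between blw, an ATP synthase subunit gene, and CycB, which encodes cyclin B, and rank 20 (668.4) lay between betaTub60D, a tubulin gene, and slbo, a C/EBP transcription factor gene. Rank 7 (1131) lay between mbl, a splicing regulator gene, and CG10939, rank 8 (1113) between NimC3 and hll, and rank 14 (852.6) between COX7AL2 and CG31668. Ranks 9 and 10 lay between CG11634 and CG2528 (987.7) and between CG11226 and CG32462 (975.2). Ranks 16 and 19 shared a gap on X between CG4004 and Paics, a purine synthesis gene, with signals of 833.3 and 791.4.

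All 20 of the highest members overlapped a thresholded peak in each replicate's own list. They were picked by the signal of the combined list, so this overlap was largely set by the choice. In 15 of the 20 the signal of replicate 2 was the higher, as it was in most members (253 of 282 with the core and 339 of 490 without it). Chromosome arm 3R held 7 of the 20, 2R 6, 2L 4, X 2 and 3L 1. The core was in 10 of the 20 windows. The lowest of the 20 was 4.92 times the median of all 782, so this set is not typical of the distal class.

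Most distal summits were of modest height. The median signal was 135.7, the middle 50% lay between 104.2 and 202.0, the highest 10% exceeded 335.3 and the extremes were 18.9 and 1804. The medians of the other classes were 153.1 for the 300 intergenic summits nearer to a TSS, 142.2 for the 2685 in gene bodies and 160.7 for the 2980 within 500 bp of a TSS. Distal summits made up 6 of the 100 highest and 73 of the 1000 highest on the arms. Widths did not separate the classes: 436 bp, the commonest width, was that of 57.3% of distal peaks and 54.5% of all peaks. The 12 distal summits under a signal of 60 all lay within 1000 bp of another summit, and 11 of their peaks overlapped another peak of the list.

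Distal summits were sparse for the space open to them. Distal sequence covered 34.1 Mb, 25.5% of the arms, so the share of summits there was 0.455 times the share of bases. It held 22.9 summits per Mb, against 59.8 per Mb in the rest of the arms. On the arms the density ran from 15.2 per Mb on X and 18.3 on 2R to 27.6 on 3L and 37.7 on chromosome 4, where only 9 distal summits lay. These are counts of mapped peaks with no test. The members nearest to the limit of the rule lay 2010 bp (CG12290, signal 279.2), 2015 bp (CG10357, 246.1) and 2019 bp (Teh1, 171.9) from a TSS. Just outside the limit were summits at 1974 bp (LPCAT, 1061), 1990 bp (Cyp6v1, 270.9) and 1998 bp (Galphai, 119.5).

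The density of distal summits fell with distance and most of all beyond 20000 bp. The median distance to a protein-coding TSS was 6841.5 bp, with quartiles of 3891 and 12871 bp. Between 2000 and 5000 bp there were 288 summits, 35.4 per Mb, between 5000 and 10000 bp 223 (28.9 per Mb), and between 10000 and 20000 bp 196 (27.1 per Mb). Beyond 20000 bp the density was 6.79 per Mb, from 75 summits. Annotated transposable elements covered 7.15% of the bases in the nearest range and 15.6% in the farthest, and unknown bases were 1.77% of the farthest, and the part of either in the density was not tested. The farthest summit of all, at chr3L:10344255, was 68563 bp from a TSS in the gap between Or67d and CG12362, with a signal of 123.2. Signal did not follow distance: the medians of the 4 ranges were 140.6, 132.2, 144.4 and 131.5.

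**Figure D1:**
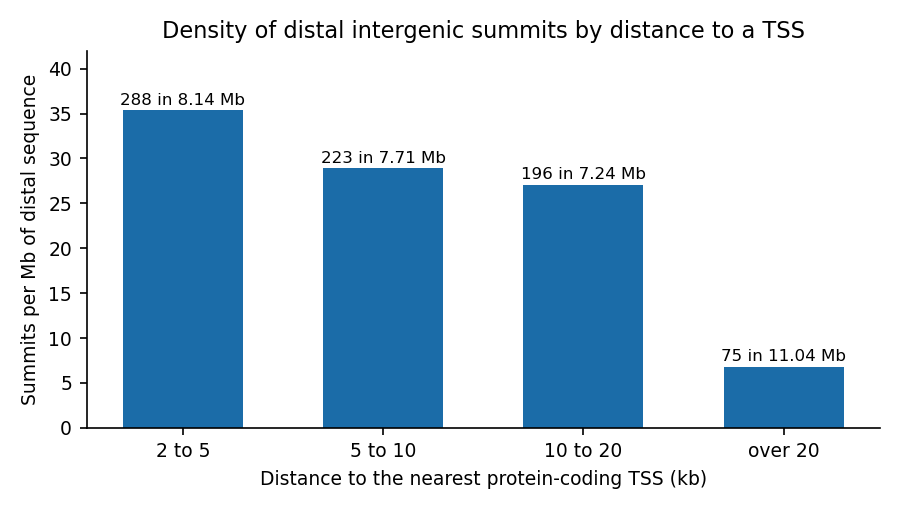
Distal intergenic summits per Mb of distal sequence (vertical axis) by distance to the nearest protein-coding TSS in kb (horizontal axis), with the count and the length of sequence over each bar. The bars fall from 35.4 per Mb in the nearest range to 27.1 in the range up to 20 kb and to 6.79 beyond it.

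The summits were spread over 435 of the 2931 gaps between protein-coding genes that hold distal sequence (14.8%). Of these, 274 held 1 summit and the other 161 held 508 together. The gap between Or67d, an odorant receptor gene, and CG12362 held 13 in 138193 bp, with signals from 84.7 to 545.8 and the core in 6. The gap of vvl and Prat2 held 10, that of plh and corto 9 and that of CG6168 and CG6163 8. Gaps between genes transcribed away from each other held 28.9 summits per Mb, against 22.3 for genes in tandem and 24.0 for genes that face each other.

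The vvl gap showed how members of a gap differ. The gene vvl encodes a POU domain factor of the nervous system and trachea. From left to right its 10 members had signals of 121.1, 92.8, 475.1, 276.5, 178.4, 157.4, 180.3, 128.0, 101.1 and 99.9. The core was in 7 of these 10 windows and the highest held it 3 times (sequence above). In the gap of plh and corto the 9 signals ran from 67.9 to 326.4, and 5 windows held the core. In the gap of CG6168 and CG6163 the 8 signals ran from 28.4 to 194.4, and no window held it.

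Many distal summits had other distal summits near them. The joining below was not applied to the other arm summits, which were denser (59.8 per Mb against 22.9). Whether clustering is particular to the distal class therefore cannot be told from these counts. With neighbours joined up to 10000 bp apart, 313 members (40.03%) fell into 80 clusters of 3 or more, 136 into 68 pairs, and 333 stood alone. Chromosome arm 3L held 29 of the 80 clusters, 2L 16, 3R 16, 2R 12, X 6 and chromosome 4 1. The number of clusters was 43 and 53 when the list of replicate 1 or of replicate 2 alone was used, 36 at an irreproducible discovery rate (IDR, the authors' measure of how a peak's rank repeats) of at most 0.001 and 51 with neighbours joined only up to 5000 bp. The median distance to the nearest other summit of any class was 4692.5 bp. Another summit lay within 1000 bp of 132 members, and 18 members had none within 50000 bp.

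Among the largest clusters, that of 9 members from CG44362 to CG7557, on chromosome arm 3L, had a median of 257.5 and a maximum of 515.6. Another, of 8 members between Or67d and CG12362, ran from 94.2 to 507.9, and 7 of the 8 lay inside lncRNA:CR46006. A cluster beside chinmo, which encodes a zinc finger factor of neuronal temporal identity, had 7 members with signals of 189.5, 224.6, 180.4, 511.9, 445.9, 542.4 and 247.6, all above the median of the class. A cluster between hng3 and CG13898 had 7 members from 106.8 to 403.2. Clusters between noc and CG33648 and between hry and SrpRbeta also had 7, and the rule placed them after these by their lower summed signal. The core was in 1, 3, 2 and 0 windows of these 4 clusters.

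The core was enriched at distal summits over the sequence around them. It was in 286 of the 782 windows (36.6%, 33.27 to 40.01), beside 38.2% of all arm summits. In windows of the same width 500 to 1500 bp to either side and in no peak it was in 173 of 1563 (11.1%). The odds ratio against these flanking windows was 4.63 (two-sided Fisher's exact test, Benjamini-Hochberg adjusted p = 5.24e-45 over 12 motifs; 95% interval 3.74 to 5.74). Against the 5965 other arm summits, of which 38.5% held the core, the odds ratio was 0.923 (interval 0.791 to 1.08, adjusted p = 0.430 by Fisher's exact test), so no difference was called. Among peaks with an IDR of at most 0.001, the odds ratio was 0.662 and the difference was called (Fisher's exact test, adjusted p = 0.00164).

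The 2 forms of the core were about equally frequent at distal summits but not equally enriched. ATCGAT was in 146 windows, 18.7% against 2.94% of flanking windows (Fisher's exact test, adjusted p = 5.78e-36; odds ratio 7.57, interval 5.37 to 10.7). ATTGAT was in 154, 19.7% against 8.45% (Fisher's exact test, adjusted p = 1.11e-13; odds ratio 2.66, interval 2.07 to 3.42). The 2 intervals do not overlap, and the difference between the forms was not itself tested. Only 14 windows held both. A window held a single core in 256 cases and 2 or 3 in 30. Core centres crowded around the summit: 183 lay within 20 bp of it, against 47 at 150 to 190 bp on both sides, 7.79 times as many per position. Windows with ATCGAT had a median signal of 137.6 and those with ATTGAT alone 126.6.

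**Figure D2:**
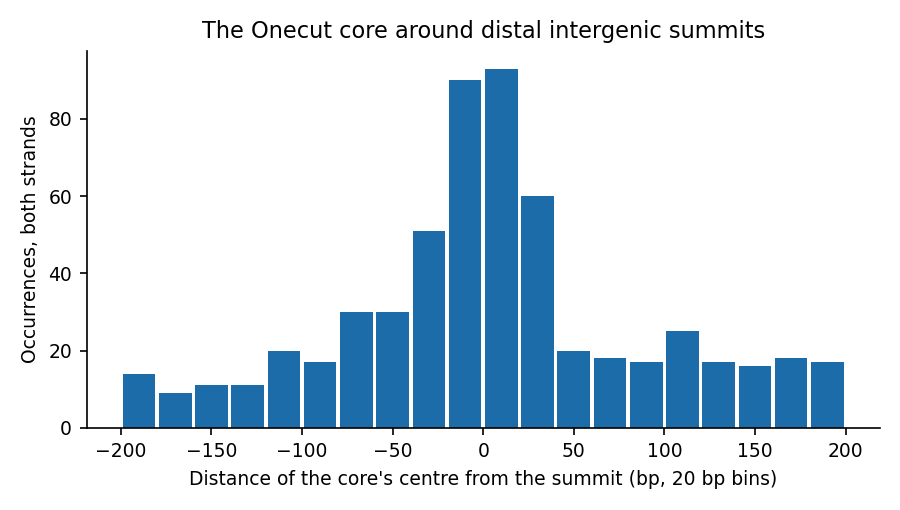
Number of core centres on either strand (vertical axis) by distance from the summit in bp (horizontal axis, bins of 20 bp) over all 782 distal intergenic summits. The 183 centres within 20 bp of the summit form the peak, and the flanks beyond 150 bp are low.

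The relation of the core to signal differed from that at other arm summits counted as 1 group. In the lowest quartile group of distal signals (18.9 to 104.2) 39.8% of windows held the core. Of other arm summits with signals up to 104.2, 26.2% held it (odds ratio 1.86, 1.36 to 2.54). In the highest quartile group (202.0 to 1804) the share was 35.2%, against 49.7% of other summits above 202.0 (odds ratio 0.550, 0.405 to 0.746). Both differences had an adjusted p of 0.000242 by Fisher's exact test, two-sided, over the 4 quartile groups, and the middle quartile groups did not pass (odds ratios 1.07 and 0.917, adjusted p = 0.686). A Breslow-Day test over all 6747 windows, which is not exact, found unequal odds ratios (p = 7.45e-07). The outer groups had no outer limit for other summits, and signals on the arms ran from 17.9 to 2942. Signal was therefore not matched within those groups. The share at distal summits was nearly level, 35.2% to 39.8%, while that at other summits rose. This comparison was added after the data were seen. The difference in the lowest quartile group was not called by Fisher's exact test in the pooled list (odds ratio 1.34, p = 0.0711), in the list of replicate 2 alone (1.25, p = 0.254) or at an IDR of at most 0.001 (1.25, p = 0.361), whereas that in the highest quartile group passed in every alternative tried.

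The medians of the same summits describe this relation in another way. Distal summits with the core had a median signal of 133.6, against 137.3 without it. In gene bodies the medians were 160.7 with and 132.4 without, within 500 bp of a TSS 208.8 and 142.8, and for near intergenic summits 173.1 and 144.5. Only the distal class had the lower median with the core, by a small margin and without a test. The windows also differed in base composition: the median GC content was 38.6% at distal summits, 39.6% at near intergenic ones, 40.6% in gene bodies and 42.6% at promoters, and its part in these results was not tested.

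**Figure D3:**
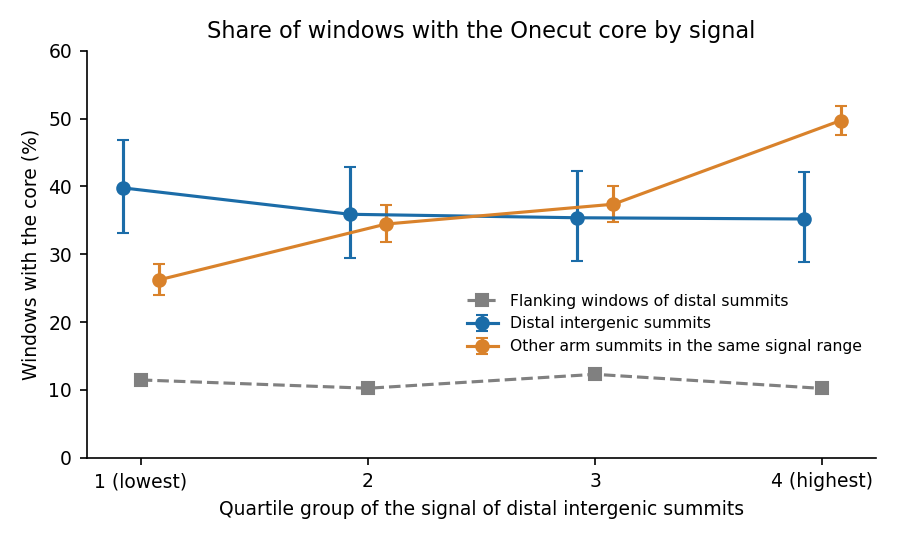
Share of summit windows with the core in percent (vertical axis) in 4 quartile groups of the distal signal (horizontal axis). Shown are distal intergenic summits, other arm summits and flanking windows, and bars are 95% Wilson intervals. Other summits were cut at the same inner limits, so their lowest and highest groups are open-ended. The distal share stays between 35.2% and 39.8% while that of other summits rises from 26.2% to 49.7%.

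Members of clusters held the core less often than members that stood alone. It was in 44.4% of the 333 single members (39.2 to 49.8), 38.2% of the 136 in pairs, 28.6% of the 213 in clusters of 3 or 4 and 25% of the 100 in larger clusters. Clusters of 3 or more (27.5%) against single members gave an odds ratio of 0.474 (interval 0.341 to 0.658, p = 9.16e-06 by Fisher's exact test, two-sided), a comparison added after the data were seen. Members of a cluster share a locus and are not independent. With only the highest member of each of the 80 clusters the share was 35.0% and the difference was not called (Fisher's exact test, p = 0.133; odds ratio 0.673, interval 0.405 to 1.12). Flanking windows stayed between 9.41% and 13.6% in the 4 groups. In 28 of the 80 clusters no window held the core, and in 13 most windows did. Clustered members were not weaker: the median signal was 131.8 for single members, 132.5 in pairs, 138.4 in clusters of 3 or 4 and 156.4 in larger ones.

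**Figure D4:**
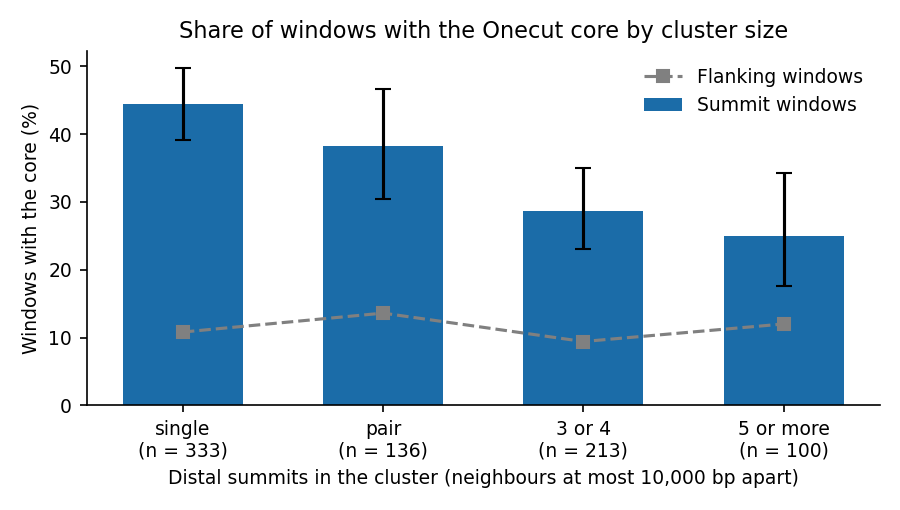
Share of windows with the core in percent (vertical axis) by the number of distal summits in a cluster (horizontal axis), with 95% Wilson intervals, and the share of flanking windows as grey squares. Bars fall from 44.4% for single summits to 25% in clusters of 5 or more, while the squares stay between 9.41% and 13.6%.

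None of the other 9 motifs searched passed against the flanking windows. GATAA, the core of GATA factor sites, was in 21.6% of windows and 17.7% of flanks (Fisher's exact test, adjusted p = 0.0664; odds ratio 1.29, interval 1.04 to 1.59). Against other arm summits 3 motifs were rarer at distal ones. TATCGATA, the DNA replication-related element of promoters, contains ATCGAT and was in 5 windows (0.639% against 1.94%, Fisher's exact test, adjusted p = 0.0325; odds ratio 0.324, interval 0.132 to 0.797). The promoter motif GGTCACACT was in 1 window (0.128% against 1.01%, Fisher's exact test, adjusted p = 0.0325; odds ratio 0.126, interval 0.0174 to 0.911). CAGCTG, an E-box, was in 25 (3.20% against 5.92%, Fisher's exact test, adjusted p = 0.0144; odds ratio 0.525, interval 0.348 to 0.793), as often as in their flanks (3.20%). For TATCGATA the shares were 0.0745% in gene bodies and 3.83% within 500 bp of a TSS, so among the other summits it lay mainly at promoters. GGTCACACT was likewise in 0.0745% of gene body windows and 1.95% of promoter windows, and CAGCTG in 4.39% and 7.52%. Against gene bodies alone none of the 3 passed. GGTCACACT had an odds ratio of 1.72 (adjusted p = 0.643) and CAGCTG 0.718 (adjusted p = 0.282), by Fisher's exact test. TATCGATA went the other way there, with an odds ratio of 8.63 (interval 1.67 to 44.6; Fisher's exact test, adjusted p = 0.0964). The remaining motifs passed in neither comparison: GAGAG was in 13.8% of distal windows and 15.5% of other summit windows, CAGGTAG in 0.512% and 0.536%, and the homeodomain core TAATTA in 6.14% and 5.33%. CACACAC was in 4.73% and 5.57%, and TTTATG in 12.1% and 9.89%.

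Just over 50% of distal summits were in the lists of both replicates. A thresholded peak of each replicate's own list overlapped 443 of 782 (56.6%, 53.2 to 60.1), beside 62.2% of all arm summits. Replicate 1 alone covered a further 74, replicate 2 alone 136, and 129 were in neither list and rest on the combined ranking. The share was below that of other arm summits (62.9%, Fisher's exact test, two-sided, adjusted p = 0.00148 over 4 comparisons; odds ratio 0.770, interval 0.662 to 0.896) and of summits within 500 bp of a TSS (66.0%, odds ratio 0.672; Fisher's exact test, adjusted p = 5.69e-06). No difference was called from gene bodies (59.9%, Fisher's exact test, adjusted p = 0.143; odds ratio 0.874, interval 0.744 to 1.03) or near intergenic summits (58.7%, Fisher's exact test, adjusted p = 0.583; odds ratio 0.921, interval 0.703 to 1.21). Support moved with signal: 192 of the 196 members in the highest quartile group were in both lists, and 18 of the 196 in the lowest. Distal signals were lower than those of promoters (above), and the part of signal in the difference was not tested.

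With peaks below the threshold included, nearly every distal summit had a peak in both replicates. A ranked peak of each replicate overlapped 772 of the 782. The members come from a list made from these same 2 replicates, so this overlap follows largely from the selection and is no independent support. Other arm summits were alike, with 2279 of 2294 that held the core and 3628 of 3671 that did not. Over the 772 distal summits the ranked signals correlated with r = 0.905 (Pearson) and rho = 0.764 (Spearman), a description across peaks that share both libraries. The median ranked signal was 61.4 in replicate 1 and 77.7 in replicate 2. In these counts, which have no test, the excess in replicate 2 was larger with the core: its signal was the higher in 253 of 282 members with the core (89.7%, median ratio 1.44) and in 339 of 490 without it (69.2%, median ratio 1.17). Other arm summits showed the same split, with median ratios of 1.49 and 1.18. Windows with the core had a median GC content of 44.6% and those without it 35.6% at distal summits, and the part of GC in the split was not tested.

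**Figure D5:**
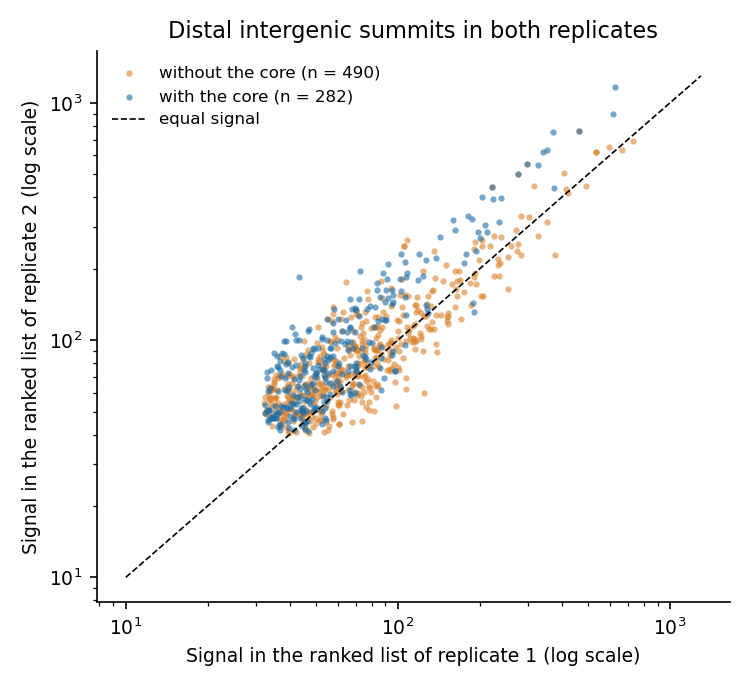
Signal of the 772 distal intergenic summits with a ranked peak in both replicates, replicate 1 on the horizontal and replicate 2 on the vertical axis, both on log scales without a stated unit. Points with the core lie above the line of equal signal in 253 of 282 cases and points without it in 339 of 490.

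Fewer ranked peaks became thresholded peaks in distal sequence than elsewhere. Of the 5423 distal summits in the ranked list of both replicates, 782 passed the authors' threshold (14.4%), against 5965 of 26807 others and 20.9% of all (Fisher's exact test, two-sided, p = 7.44e-41; odds ratio 0.589, interval 0.543 to 0.638). This comparison was added after the data were seen.

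Non-coding RNA genes overlapped more distal summits than their length would give. A summit lay inside such a gene in 114 cases (14.6%, 12.3 to 17.2), while these genes cover 7.02% of distal sequence, a density of 47.5 summits per Mb. Of the 114, 109 lay in 77 lncRNA genes, 2 in antisense RNA genes and 3 in snRNA genes, and 72 in an exon. A non-coding start site was within 500 bp of 81 members (10.4%), against 3.50% of distal sequence. The core was in 37.7% of windows inside a non-coding gene, near the 36.6% of all members. These shares of sequence have no test.

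The 8 highest members inside a non-coding gene were those of rank 1 in lncRNA:CR44930, rank 8 in lncRNA:CR31840, rank 10 in asRNA:CR43426, rank 16 in lncRNA:CR44619, rank 19 in lncRNA:Vinr, ranks 20 and 24 in lncRNA:CR44810 and rank 33 in lncRNA:CR44363. The summit in lncRNA:CR31840 lay 33 bp from its start. Chosen after the values were seen, lncRNA:Hsromega, a stress-induced nuclear RNA, had a summit of 811.1 at 29 bp from its start (276.3 in replicate 1 and 501.1 in replicate 2; window between SIFaR and aus above) and others of 498.3 and 120.6 inside it. The bithorax complex transcript lncRNA:bxd, beside Ubx, held 4, none above 140.3, and lncRNA:iab8 beside Abd-B held 2, of 255.7 and 88.2.

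Genes for small RNAs lay within 250 bp of 7 members. A tRNA gene for alanine, tRNA:Ala-TGC-2-1, was beside the summit of rank 7 (1131), and tRNA:Glu-TTC-1-5 and snoRNA:185 were on either side of a summit of 173.9. The microRNA genes mir-8 and mir-34 had summits of 123.0 and 109.9. The spliceosomal snRNA genes snRNA:U1:95Ca, snRNA:U5:63BC and snRNA:U1:21D each contained a summit (166.7, 122.6 and 107.8), and none of these 3 windows held the core. The windows of the 2 U1 genes share a run of 61 identical bases, so reads could be split between copies and these 2 summits are uncertain. Of the 782 summits, 5 lay in an annotated transposable element (0.639%), which cover 11.5% of distal sequence, and 3 of the 5 were on chromosome 4.

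Developmental genes were described by 8 lists, which cover patterning, neural, mesoderm, signalling and gut genes and were drawn up with earlier results of these data known, so their shares are no evidence of an excess. Of 190 symbols, 6 matched no annotated gene and were left out, among them h, which RefSeq names hry and whose gap with SrpRbeta held 7 members. Of the 184 genes matched, 72 genes had a distal summit in the gap beside them, in all and without a test 141 members (18.03%) against 9.90% of distal sequence, or 41.7 per Mb. Neuronal homeobox genes had the most, 50 members (6.39% against 2.53% of sequence) beside 21 of 33 genes. The highest were at vvl (475.1), at zfh2 (465.4), at hth (456.9) and at the head gap gene ems (360.0). Only the windows at vvl and ems held the core.

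Hox genes had 10 members (1.28% against 0.489%) beside 6 of 8 genes: after Dfd and abd-A the highest were 255.7 at Abd-B and 176.1 at Antp. Segmentation genes had 21 (2.69% against 1.52%), led by hb, by the pair-rule genes slp1 and slp2, which share a summit of 626.4, and by odd (220.9). Of the gut, hemocyte and fat body list, 14 members (1.79% against 0.835%) lay beside 6 of 15 genes. The highest were at Dr (469.4), tsh (258.3), fkh, a gut forkhead factor gene (137.8), and grn (89.3). Dr is a homeobox gene that the name of this list does not describe. It gave 5 of the 14 members, so the total of this list does not stand for gut, hemocyte and fat body genes alone. Neuroblast and proneural genes had 12 (1.53% against 1.07%), led by pros (297.5), SoxN (192.6), nub (154.0) and D (152.2). The mesoderm list had 13 (1.66% against 1.00%), led by Doc1 and Doc2, which share a summit of 347.0, mid (216.9) and the FGF receptor gene htl (156.3).

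In the remaining lists the shares were closer to that of sequence. Signalling genes had 9 members (1.15% against 0.837%), led by the Hedgehog receptor gene ptc (266.7), by wg and Wnt4, which share a summit of 183.2, and by the Notch ligand gene Ser (165.4). Guidance and adhesion genes had 17 (2.17% against 1.96%), led by the Toll family genes 18w (280.5), Toll-7 (266.8) and Toll-6 (260.2) and by the Slit receptor gene robo2 (182.5).

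The gene with the nearest TSS also had a promoter summit for 178 of 782 members (22.8%, 19.96 to 25.8), against 11.7% of distal bases. The share was near that of all protein-coding genes, of which 23.4% had one. The 782 members had 504 different nearest genes.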

How the data were processed

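Per the file headers (read-me texts beside the lists) and the labels, the authors deposited ChIP-seq peak lists in dm6 coordinates, made from the alignments of 2 replicates and a control alignment. There is a ranked and a thresholded list for each replicate alone, for both together and for pooled data. The sources used here do not name the aligner, the peak caller or the depth. The deposited lists give each peak a signal on a scale not stated, a score (its scaled irreproducible discovery rate, IDR) and, in ranked lists, the −log10 of the IDR. No column of other samples was found (0).

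The members come from the conservative list of 6755 peaks, of which 8 off the arms were left out. A summit is the peak's start plus the deposited offset. Genes came from Ensembl release 115 and sequence from RefSeq's Release 6 assembly, in dm6 coordinates. The members and gene lists were chosen with earlier results of these data known. Motif searches covered either strand of windows that reach 50 bp to each side of the summit (plus-strand sequence shown), and flanking windows lay 500 to 1500 bp away in no peak. Motif and replicate comparisons used Fisher's exact test, two-sided, adjusted by Benjamini and Hochberg within each family at 0.05, with Python 3.11.15, scipy 1.17.1 and statsmodels 0.14.6. The steps were tested on simulated data. Replicate overlap needed 1 bp. Peaks are not biological replicates: p-values and 95% Wilson intervals describe these lists only.

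Genes were named by a rule: those beside the 20 highest members, the 5 fullest gaps and the 5 largest clusters (ties by summed signal); non-coding hosts of the 8 highest members inside one and small RNA genes within 250 bp; up to 4 genes per list; members nearest to the limit; and the farthest. Exceptions are marked in the text. The results for 1 gap and its cluster are not reported here. Alternatives were the pooled and replicate lists, an IDR of at most 0.001, other distances, windows and cluster gaps, and non-coding genes treated as genes.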

Additional observations from a re-analysis of the deposited data

How the results depend on the processing

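Of 103 alternative values, 84 stayed the same by these rules: a test kept its direction and call, whatever its size, a count stayed within 1.5 times, and a share or median stayed within its interval or quartiles. Another 14 moved, 4 lost their call, 1 gained one and none reversed. With an IDR of at most 0.001 the distal summits numbered 422 (10.6% of arm summits) in 36 clusters, the odds ratio of the core against other summits was 0.662 and that in the lowest signal quartile group 1.25. Beyond 5000 bp from a TSS there were 494 (7.32%) in 44 clusters, beyond 1000 bp the share was 14.1%, and with non-coding genes left out 7.94%. The core was in 25.3% of windows that reach 25 bp to each side of the summit and 44.2% of those that reach 100 bp. Clusters joined up to 5000 bp apart numbered 51. The pooled list gave 1.34 in the lowest quartile group, and 1 member per cluster gave 0.673 for clustered against single members. Without replicate 1 or replicate 2, the core share ran from 32.8% to 37.7%, clusters from 43 to 53 and the lowest-quartile odds ratio from 1.25 to 1.69. The cause of these changes was not tested, except that fewer peaks or a narrower window leave fewer members or cores by construction. Counting overlapping peaks once left 758 members and changed no call. The odds ratio of the core against flanking windows ran from 3.02 to 5.69. Read depth is unknown and limits all counts. The design has 1 group, so no conditions could be paired. The flanking windows lay beside the same summits, and Fisher's exact test against them did not use this matching.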
